A study of Mus musculus with 6 samples.

Results

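The epidermal differentiation complex is a cluster of genes on mouse chromosome 3 that encode structural and calcium-binding proteins of the outer epidermis. Its members here are the table rows whose symbol begins with Sprr or Lce or is S100a followed by a number, together with Ivl, Lor, Flg2, Hrnr, Rptn, Crnn, Tchh and Tchhl1. They number 55 of 23337 genes: 15 Sprr genes, 18 Lce genes, 14 S100a genes, 6 genes of the S100 fused type (Flg2, Hrnr, Rptn, Crnn, Tchh and Tchhl1), and the pair Ivl and Lor. Flg was not analysed here. RNA was sequenced from cells of basal cell carcinoma, a skin tumour, taken from mouse ear epidermis. All 6 libraries carried R26-SmoM2/+ with K14CreER: a constitutively active Smoothened allele, which switches on Hedgehog signalling, and a tamoxifen-inducible Cre driven by a keratin 14 promoter, so that recombination is limited to keratin 14-expressing cells and their progeny. The 3 knockout libraries came from mice that also carried Yapfl/fl, the 3 wild-type libraries from mice without it. Tamoxifen was given at 4 weeks of age and, per each sample's stage label, the cells were taken 6 weeks later.

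Keratinocytes that leave the basal layer build a cornified envelope under the plasma membrane. Involucrin (Ivl), loricrin (Lor), the small proline-rich proteins (Sprr) and the late cornified envelope proteins (Lce) are cross-linked into it by transglutaminases, while the S100 fused-type proteins bind keratin filaments or join the envelope and the S100a proteins are small calcium-binding proteins with roles inside and outside the cell. YAP, encoded by Yap1, acts through TEAD transcription factors, and the AP-1 factors, which include c-JUN, are known regulators of several genes of this cluster.

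The sequences before the start sites are shown because the Sprr2 and Lce1 genes, each a set of near relatives, were high in different libraries. Windows from 250 bases before to 50 bases after the start, from RefSeq on build GRCm38.p6, were matched by symbol for 49 of the 55 genes. The AP-1 motif TGANTCA, which reads alike on both strands, occurred in 16 of the 49 windows (32.7%), against 7.93% of the 27025 windows of all genes. It was in 9 of 13 Sprr windows, in 4 of 6 fused-type windows (Crnn, Flg2, Rptn and Tchhl1), in both the Ivl and the Lor window, in 1 of 11 S100a windows (S100a11) and in 0 of 17 Lce windows. The lines below give the bases around the motif for the detected Sprr2 genes with a window, Sprr1b, Sprr1a, Rptn, Ivl and Lor, with the motif in capitals. In the 6 Sprr2 genes shown, the first match began 193 to 198 bases before the start.
Sprr2d, chr3:92338922-92338981, strand +: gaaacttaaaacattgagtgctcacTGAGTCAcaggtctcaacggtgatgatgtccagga
Sprr2e, chr3:92351925-92351984, strand +: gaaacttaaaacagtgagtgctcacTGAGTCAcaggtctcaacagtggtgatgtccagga
Sprr2f, chr3:92364965-92365024, strand +: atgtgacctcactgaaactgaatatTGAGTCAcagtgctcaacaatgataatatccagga
Sprr2h, chr3:92385462-92385521, strand +: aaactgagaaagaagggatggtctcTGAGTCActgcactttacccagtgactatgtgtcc
Sprr2i, chr3:92407773-92407832, strand +: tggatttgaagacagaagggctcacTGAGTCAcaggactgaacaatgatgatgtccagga
Sprr2k, chr3:92432361-92432420, strand +: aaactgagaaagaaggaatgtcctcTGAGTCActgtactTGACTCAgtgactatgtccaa
Sprr1b, chr3:92438856-92438915, strand -: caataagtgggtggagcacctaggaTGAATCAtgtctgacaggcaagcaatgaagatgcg
Sprr1a, chr3:92485991-92486052, strand -: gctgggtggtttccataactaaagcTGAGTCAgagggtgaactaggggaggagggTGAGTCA
Rptn, chr3:93393578-93393637, strand +: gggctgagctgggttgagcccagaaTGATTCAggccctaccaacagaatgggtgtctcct
Ivl, chr3:92573817-92573876, strand -: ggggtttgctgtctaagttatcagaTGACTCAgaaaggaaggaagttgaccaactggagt
Lor, chr3:92083156-92083215, strand -: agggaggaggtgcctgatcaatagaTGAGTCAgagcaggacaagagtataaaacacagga
For contrast, the next lines give the 150 bases before the start of the Lce1 genes with the highest mean levels, in which no motif was found and no letters are in capitals.
Lce1a1, chr3:92648308-92648457, strand -: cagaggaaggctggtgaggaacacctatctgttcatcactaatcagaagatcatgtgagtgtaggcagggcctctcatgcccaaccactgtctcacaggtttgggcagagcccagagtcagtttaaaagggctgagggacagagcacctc
Lce1m, chr3:93019062-93019211, strand -: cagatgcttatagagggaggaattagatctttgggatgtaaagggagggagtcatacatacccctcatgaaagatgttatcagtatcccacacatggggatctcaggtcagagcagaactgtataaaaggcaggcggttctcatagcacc
Pairwise identity over the 250 upstream bases had a median of 50.5% (41.7% to 55.9%) over 891 pairs of genes from different sub-families, which gives the level of such an alignment. It had a median of 64.2% over 66 pairs of Lce1 genes (50.5% to 85.6%), of 64.5% over 36 pairs of Sprr2 genes (49.3% to 100%) and of 58.3% over 6 pairs of Lce3 genes (55.9% to 65.2%), and Sprr1a and Sprr1b shared 55.9%. The 6 Sprr2 genes shown lay at 60.1% to 89.3% of each other. Sprr2a1 and Sprr2a2 were identical to each other and lay at 49.3% to 52.8% of the other Sprr2 genes, within the range of pairs from different sub-families. Their RefSeq windows start at 92215585 and 92250397, and the Sprr2a2 window lies 34727 bases from the start that GENCODE gives for that gene. The TEAD motif GGAATG, on either strand, was in 10 of the 49 windows (20.4%) against 14.6% of all windows, and the GLI motif GACCACCCA was in 0 of 49 against 0.244%. The 4 Lce3 windows had 0 AP-1 matches, and the Lce3 genes had the same 2 highest libraries as the Sprr2 genes. So did Sprr1a, Sprr1b, Rptn, Ivl and S100a11, with a match. Among genes without a match, so did Hrnr, S100a4, S100a8, S100a9 and S100a16. Lor, with a match, did not, nor did Tchh and the Lce1 genes, without one. Whether the motif goes with the libraries was not tested. A match describes the letters only and says nothing of whether a factor binds there.

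Reads assigned to genes numbered 15405490 to 25260431 per library, and 3 reads, the upper limit that a count of 0 allows for counting error, equalled 2.47 to 3.90 normalized counts (reads divided by the library's size factor). The targeted gene, Yap1, measured 5765, 6004 and 5573 normalized counts across replicates 1 to 3 of the wild type, the order used throughout, and 591, 773 and 1764 across those of the knockout. The groups did not overlap, and knockout library 3 kept the most Yap1 reads (DESeq2 adjusted p = 1.07e-07, limma adjusted p = 0.517). The labels do not name the Yap exons that the floxed allele removes. The defining markers of the labelled cells were high in every library: Krt5 lay between 223225 and 347189, Krt14 between 89194 and 187297, and the Hedgehog target Gli1 between 13955 and 19838. Title codes put replicates 1 and 2 of both genotypes in a series beginning DM22 and replicate 3 of both in a series beginning DM24. The labels do not say what these codes stand for. The DM24 libraries were the shallower ones and the ones with Xist (59594 and 58654, against 8.62 to 15.1 in the 4 DM22 libraries), so code series, sex and depth cannot be told apart. Nothing in the labels says that the libraries of a group came from separate animals, so the p-values measure only the spread between these libraries.

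Of the 55 genes, 29 were detected, meaning that their normalized counts averaged at least 10 across the 6 libraries. They were 9 of 15 Sprr genes, 3 of 18 Lce genes (Lce1a1, Lce1m and Lce3f), 12 of 14 S100a genes, 3 of 6 fused-type genes (Hrnr, Rptn and Tchh) and both Ivl and Lor. Just below the threshold lay Lce3c (mean 9.96), Lce1g (9.53) and Sprr2b (9.38), and just above it Lce3f (11.1), Hrnr (11.6) and Lce1a1 (14.9). Sprr2a1 (chr3:92215799-92221911) and Sprr2a2 (chr3:92215920-92256724), whose annotated models overlap, had no read in any library. Normalized counts of Lce3c were 0.841, 9.58 and 32.5 in wild type and 1.78, 4.95 and 10.1 in knockout. Those of Lce1g were 0, 0.958 and 15.6 in wild type and 0.892, 32.2 and 7.59 in knockout. Each gene had its highest value in a single library, wild-type library 3 for Lce3c and knockout library 2 for Lce1g. The remaining 24 undetected genes had reads in at least 1 library.

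Per kilobase of exon, the S100a genes held the highest levels. S100a9 and S100a8, the subunits of calprotectin, averaged 13854 and 6460 normalized counts per kb across the 6 libraries, with wide spread: S100a9 was 13757 ± 14681 per kb across the wild-type libraries and 13952 ± 18466 across the knockout libraries (SD, n = 3 each). S100a6 (12404 ± 2607 and 11195 ± 1701, wild type first), S100a14 (4942 ± 287 and 5074 ± 1123) and S100a10 (3919 ± 96.8 and 3668 ± 565), the annexin A2 partner, were steadier. The envelope precursors came lower. Sprr1b stood at 1057 ± 1225 and 1500 ± 1656 per kb and Sprr1a at 982 ± 618 and 1312 ± 765, within 1 SD of each other. Ivl (63.7 ± 33.4 and 57.2 ± 22.3) and Lor (95.8 ± 25.4 and 52.4 ± 30.2) were lower still and not apart beyond their spread, and Hrnr, a filaggrin-like protein, was lowest of the detected genes with a mean of 1.03. Of the 12 detected S100a genes, S100a3 and S100a7a were at the low end of the order.

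**Figure D1:**
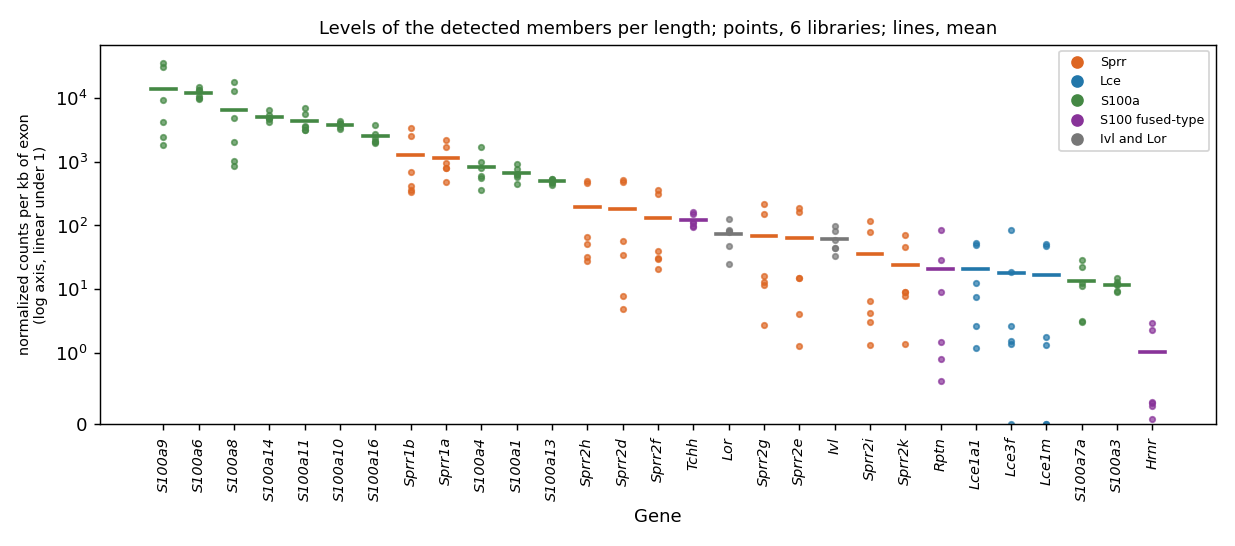
Levels of the 29 detected genes in normalized counts per kilobase of exon (log axis, linear under 1), 1 point per library and a line at the mean of 6, ordered by mean and coloured by sub-family. The S100a genes fill the top of the order, and the Sprr2 genes split into 2 high libraries and 4 low ones. S100a8 and S100a9 also have 2 high libraries, with wild-type library 1 between these and the rest.

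The comparison of knockout with wild type asked which transcripts differ when Yap is deleted from SmoM2 tumours. No gene of the complex passed limma's test with Benjamini-Hochberg adjustment over all 13671 genes tested. The background was the same: 0% of all genes passed (0 of 13671, with 759 genes and 1 of the 29 detected members, Tchh, at an unadjusted p under 0.05), and edgeR also called 0% (761 genes and 1 member at an unadjusted p under 0.05). DESeq2 called 72 genes, 0.527% of those tested, and 0 of the 29 members. Limma did not call the targeted gene Yap1 either, so a lack of limma calls does not show a lack of change. Of the members, 14 had a log2 difference (knockout minus wild type, on log2 of the normalized count plus 1) above 0 and 15 below, with a median of −0.0043 beside −0.0034 over all genes tested. Only Tchh had groups that did not overlap: 1 of 29 with knockout lower, against 5.87% of all genes, and 0 of 29 with knockout higher, against 5.08%. In these bulk libraries, fewer cells of a type and less RNA per cell cannot be told apart. Within same-numbered libraries the median over members was −0.17, 0.17 and 0.21 for pairs 1 to 3. Without wild-type library 3 the median was 0.70, without knockout library 1 it was 0.60, and without knockout library 3 it was −0.38.

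**Figure D2:**
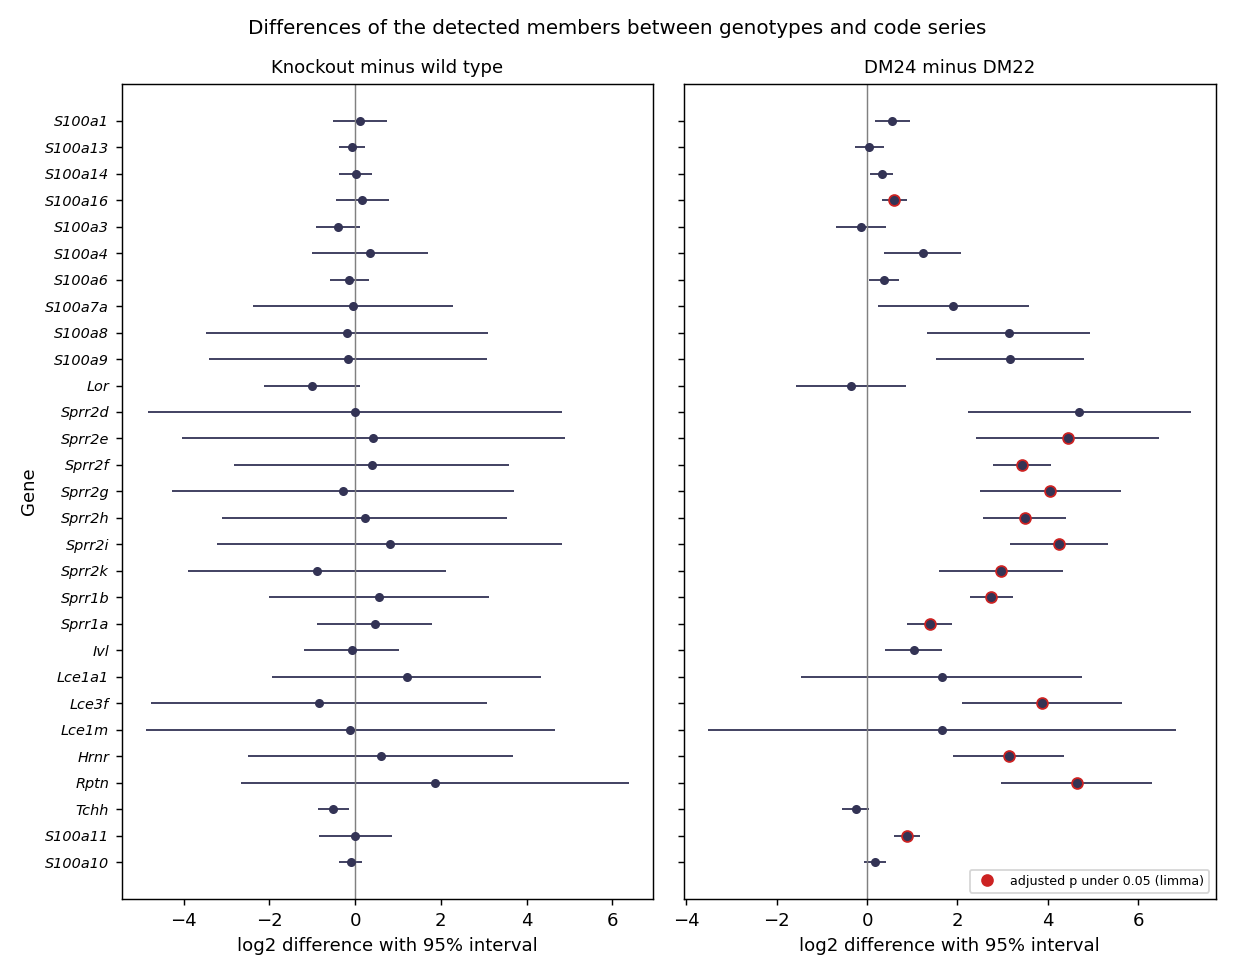
Log2 differences of the 29 detected genes with 95% intervals from limma, for knockout minus wild type (left) and for the DM24 minus the DM22 code series with genotype in the fit (right), genes in chromosomal order; red points have an adjusted p under 0.05. On the left every interval except that of Tchh includes 0 and none is red; on the right 13 points are red, all above 0.

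The Sprr genes had a median difference of 0.39, with 6 of 9 above 0. Sprr1b, a cross-bridging protein of the envelope induced in stressed and differentiating keratinocytes, measured 280, 301 and 2051 normalized counts in the wild type and 346, 561 and 2827 in the knockout. Each knockout library was above its same-numbered wild-type library, by 0.30, 0.90 and 0.46 (log2), but the groups overlapped and the difference was within the spread (0.55, SE 1.05, limma adjusted p = 0.999). Sprr1a had 391, 635 and 1349 against 643, 763 and 1766, again higher in each pair (0.46, SE 0.55, limma adjusted p = 0.995). In both genes and both genotypes, library 3 was well above libraries 1 and 2. Sprr2h, the highest Sprr2 gene per kb, had 21.0, 38.3 and 352 in wild type and 24.1, 50.3 and 378 in knockout (0.22, 95% interval −3.09 to 3.54). Sprr2d had 3.36, 38.3 and 321 against 5.35, 23.9 and 345 (−0.0043, −4.83 to 4.82), and Sprr2f had 12.6, 18.2 and 186 against 18.7, 23.9 and 223 (0.39, −2.82 to 3.60). In 6 of the 9 Sprr genes (Sprr1a, Sprr1b, Sprr2e, Sprr2f, Sprr2h and Sprr2i) the knockout library was the higher in all 3 pairs, and in Sprr2k it was the lower in all 3. The 4 Sprr2 genes among these 6 are near relatives, so the 6 are not independent measurements. Of the 29 detected members, 8 were higher and 3 lower in all 3 pairs. Across all 13671 genes tested, 2087 were higher and 2371 lower in all 3 pairs. With the replicate number as a block, which fits the paired differences, DESeq2 gave Sprr1b an adjusted p of 0.098 and Sprr1a one of 0.21, while the fit holding the code series gave 0.115 and 0.406.

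The S100a genes had a median of −0.06, 5 above 0 and 7 below. S100a6, also called calcyclin, had 17904, 13015 and 19951 in wild type and 14562, 13441 and 17910 in knockout (−0.14, SE 0.19, limma adjusted p = 0.996). S100a14 had 8283, 8214 and 9106 against 7237, 8106 and 10945, and S100a10 had 4885, 4671 and 4695 against 3945, 4167 and 5226. In both genes knockout libraries 1 and 2 were below their pairs and knockout library 3 was above. S100a8 had 3317, 589 and 8881 in wild type and 697, 1406 and 12007 in knockout, and S100a9 had 4852, 952 and 15739 against 1283, 2163 and 18402. Within each genotype both genes spanned more than 10 times from the lowest to the highest library, and their differences of −0.19 and −0.17 had SEs of 1.35 and 1.33. S100a3, a hair cuticle protein, was lower in each pair, by 0.32, 0.34 and 0.54 (log2): it had 84.9, 67.0 and 74.1 in wild type and 67.8, 52.8 and 50.6 in knockout. Its groups overlapped by less than 1 normalized count (−0.40, SE 0.22, limma adjusted p = 0.933). S100a2 lies within the span of S100a3 on the same strand, so reads of the pair may not be separable.

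Among the fused-type genes, Tchh and Rptn were the only members of the complex called by DESeq2 in a fit of all 6 libraries, and both only with a term added. Tchh encodes trichohyalin, which hardens the inner root sheath of the hair follicle. Its normalized counts were 878, 958 and 669 in wild type and 629, 549 and 566 in knockout. All 3 knockout libraries were below all 3 wild-type libraries, and the 2 higher wild-type libraries were the DM22 ones. The difference was −0.51 (SE 0.15, 95% interval −0.87 to −0.15) with an unadjusted limma p of 0.0131 and an adjusted p of 0.733. DESeq2 gave adjusted p-values of 0.224 without a term, 0.206 under the replicate block and 0.0295 when the code series was added. Within the 4 DM22 libraries the difference was −0.64, with a DESeq2 adjusted p of 0.0147. Leaving out a DM24 library under the code series leaves the other one without a partner, so that run compares the DM22 libraries again and is no separate check (adjusted p = 0.0369 without wild-type library 3 and 0.0295 without knockout library 3). The call was lost without wild-type library 1 (0.340) or 2 (0.155) or knockout library 1 (0.397) or 2 (0.864). Of 11 listed inner root sheath markers 8 were detected, 5 above 0 and 3 below, and their summed level ran from 5097 to 11232 in wild type and from 4921 to 9032 in knockout. Of 20 immediate early and tissue handling genes, all 20 were below 0 in knockout with a median of −0.61, and 13 were lower in all 3 pairs. Of all 13671 genes tested, 2371 were lower in all 3 pairs. DESeq2 called 0 of the 20 without a term, 8 lower with the replicate block and 9 lower with the code series, the AP-1 genes Jun and Jund among them. Of all 13671 genes, it called 48, 114 and 200 lower in these 3 fits. The summed level of the 20 genes ran from 326921 to 924555 in wild type and from 161657 to 618062 in knockout. The part of inner root sheath cells or of these handling genes in the Tchh and Rptn calls was not tested.

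Rptn encodes repetin, an envelope precursor. Its normalized counts were 2.52, 3.83 and 118 in wild type and 6.24, 37.1 and 357 in knockout. Each knockout library was above its pair, by 1.04, 2.98 and 1.58 (log2), yet wild-type library 3 was above knockout libraries 1 and 2. Without a term the difference was 1.87 (SE 1.86, limma adjusted p = 0.993). With the replicate block DESeq2 called Rptn higher (2.03, SE 0.55, adjusted p = 0.0234), 1 of 29 members against 1.24% of all genes. With the code series it called Rptn higher (2.27, SE 0.69, adjusted p = 0.049) and Tchh lower, 2 of 29 members against 2.19% of all genes, and in the DM22 libraries alone it called Tchh, 1 of 29 against 1.86%. Limma and edgeR called neither gene under the block or the code series (limma adjusted p for Rptn 0.392 and 0.385). Under DESeq2 with the code series, Rptn kept its call without knockout library 1 (adjusted p = 0.00647) and lost it without wild-type library 1 (0.300) or 2 (0.412) or knockout library 2 (0.537). Without a DM24 library, which again leaves the DM22 comparison, it had an adjusted p of 0.146 in the run lacking wild-type library 3 and no adjusted p in the run lacking knockout library 3. In these runs other members passed as higher, each in a single run. Without wild-type library 1 S100a4 was called, 1 of 29 members (3.45%) against 0.951% of all genes. Without wild-type library 2 it was Sprr1a, 1 of 29 against 3.62%, and without knockout library 1 Sprr1b and Rptn, 2 of 29 (6.90%) against 1.02%. Normalized counts of S100a4, also called metastasin, were 465, 207 and 579 for wild type and 349, 326 and 996 for knockout, with overlapping groups. DESeq2 without a term called both Rptn and Tchh when wild-type library 3 was left out (adjusted p = 0.0157 and 0.000571), 2 of 29 against 1.65% of all genes. Hrnr had 0.841, 2.87 and 26.0 in wild type and 3.57, 3.30 and 32.9 in knockout, higher in each pair and within the spread. Crnn (1.26 to 6.70 over the libraries), Flg2 (0 to 33.8) and Tchhl1 (0 to 6.50) were below the detection threshold. Flg2 had its one high value, 33.8, in wild-type library 3.

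Loricrin and involucrin were lower on average in knockout, and neither passed the test. Lor, the main protein of the mature envelope, had 147, 142 and 222 in wild type and 84.7, 151 and 44.3 in knockout. Knockout library 2 was level with the lower wild-type libraries and knockout library 3 was the lowest of all. The log2 difference was −1.0 (95% interval −2.11 to 0.11), and the limma p was 0.0702 unadjusted and 0.919 adjusted. The within-pair differences of Lor were −0.79, 0.09 and −2.30. Ivl had 63.9, 112 and 191 against 83.8, 86.6 and 159 (−0.08, SE 0.46), with replicate 3 the highest in both genotypes.

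**Figure D3:**
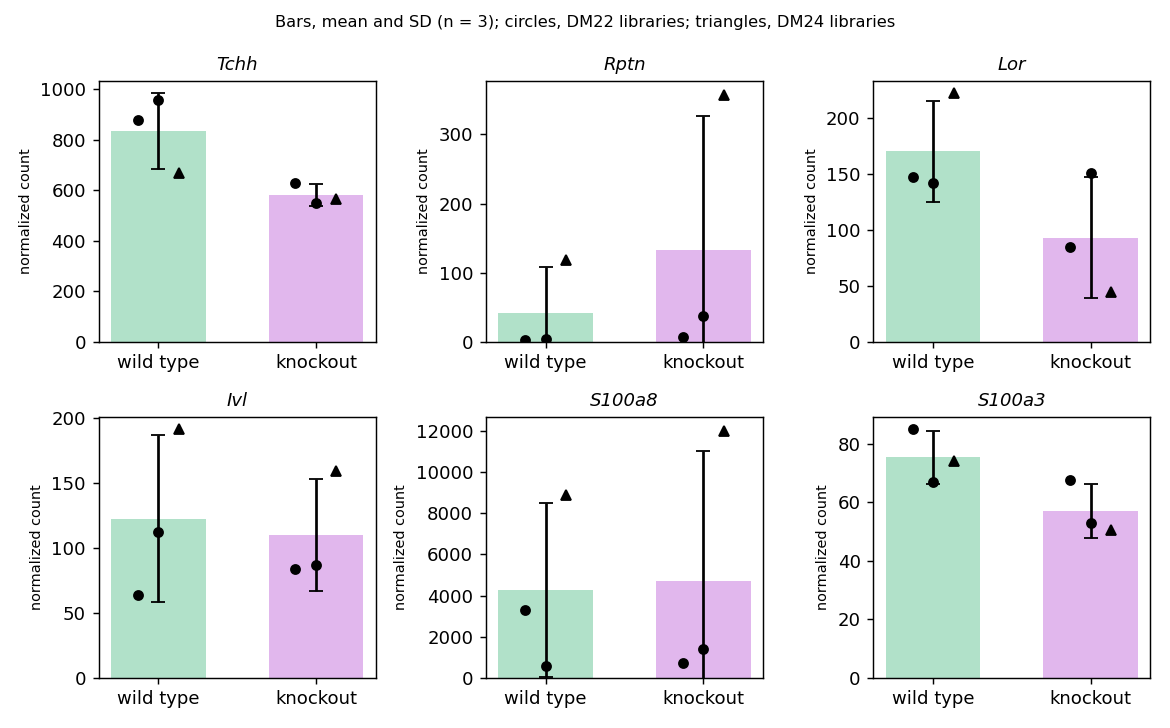
Normalized counts of Tchh, Rptn, Lor, Ivl, S100a8 and S100a3 in wild type and knockout (bars, mean; error bars, SD, n = 3, drawn down to 0 at most; circles, DM22 libraries; triangles, DM24 libraries). The 3 Tchh points of the knockout sit between 549 and 629, all below the wild-type points, while the Rptn and S100a8 triangles stand far above the circles of both genotypes.

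The members also differed along the code series. With genotype in the fit, limma called 13 of the 29 detected members (44.8%) higher in the 2 DM24 libraries than in the 4 DM22 libraries, against 2.68% of all genes tested, and 0 of 29 lower, against 4.07%. The 13 were Sprr1a, Sprr1b, Sprr2e, Sprr2f, Sprr2g, Sprr2h, Sprr2i, Sprr2k, Lce3f, Hrnr, Rptn, S100a11 and S100a16. The Sprr2 genes among them are near relatives, and reads that match several could have been divided among them. The 13 calls are therefore not 13 independent measurements. Sprr1b had a mean of 2439 normalized counts in DM24 and 372 in DM22, a ratio of 6.56 (log2 difference 2.75, SE 0.19, limma adjusted p = 0.00439). Sprr2f was 11.1 times higher (204 against 18.4, log2 difference 3.43, SE 0.27, adjusted p = 0.00444) and Sprr2h 10.9 times higher (365 against 33.4, adjusted p = 0.0133). Rptn was 19.1 times higher (238 against 12.4, log2 difference 4.64, SE 0.68, adjusted p = 0.0261). Sprr1a (2.56 times), S100a11 (1.86 times) and S100a16 (1.54 times) had smaller ratios with adjusted p-values of 0.0276, 0.02 and 0.0409. For S100a11, which can be cross-linked into the envelope, the normalized counts were 1821, 1791 and 2795 in wild type and 1613, 1606 and 3543 in knockout. S100a16 had 3383, 3307 and 4435 against 3129, 3730 and 5964. In both S100a genes each DM24 library was above all DM22 libraries, at smaller ratios than in the Sprr2 genes. Sprr2e had 0.841, 9.58 and 105 in wild type and 2.68, 9.89 and 123 in knockout. Sprr2g had 8.41, 7.66 and 100.1 against 1.78, 10.7 and 140. These genes were again high in replicate 3 of both genotypes and low in the other libraries. Sprr2i had 0.841, 1.92 and 48.1 in wild type and 2.68, 4.12 and 73.3 in knockout. Sprr2k had 5.88, 5.75 and 45.5 against 0.892, 4.95 and 29.1. Of these 4 Sprr2 genes, Sprr2k was the one with its highest value in the wild type. Sprr2d had a ratio of 18.8 and missed the threshold (adjusted p = 0.0531), its DM22 libraries running from 3.36 to 38.3.

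Of the 29 members, 26 had a difference above 0, with a median of 1.66 beside −0.00017 over all genes tested. The 3 below 0 were Lor, S100a3 and Tchh, and none of these passed. In 22 of 29 members (75.9%) both DM24 libraries were above all DM22 libraries, against 19.0% of all genes. DESeq2 called 20 of 29 higher, against 6.47%, and edgeR 14, against 2.98%. The detection threshold used all 6 libraries, so a gene that is high only in DM24 can pass it for that reason: Sprr2e, Sprr2g, Sprr2i, Sprr2k, Lce3f and Hrnr had DM22 means under 10. Among genes whose mean in the DM22 libraries was at least 10, 7 of 23 members were called higher (30.4%), against 2.44% of 13489 genes. With no threshold, 16 of the 53 members with a read were called (30.2%), against 2.53% of 18215 genes. The counts of calls moved with the libraries left out. Limma called 0 members higher without knockout library 3, when 3 genes of all tested were called higher, and 1, S100a11, without wild-type library 3, when 17 were. The members' median was 2.67 and 1.56 in these runs. Limma called 6 members without knockout library 1 (20.7%) and 5 without knockout library 2 (17.2%), against 0.322% and 0.256% of all genes called higher. It called 19 without wild-type library 1 (65.5%) and 16 without wild-type library 2 (55.2%), against 4.61% and 4.02%. DESeq2 called 8 without knockout library 3 (27.6%) and 13 without wild-type library 3 (44.8%), against 1.13% and 2.11%.

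**Figure D4:**
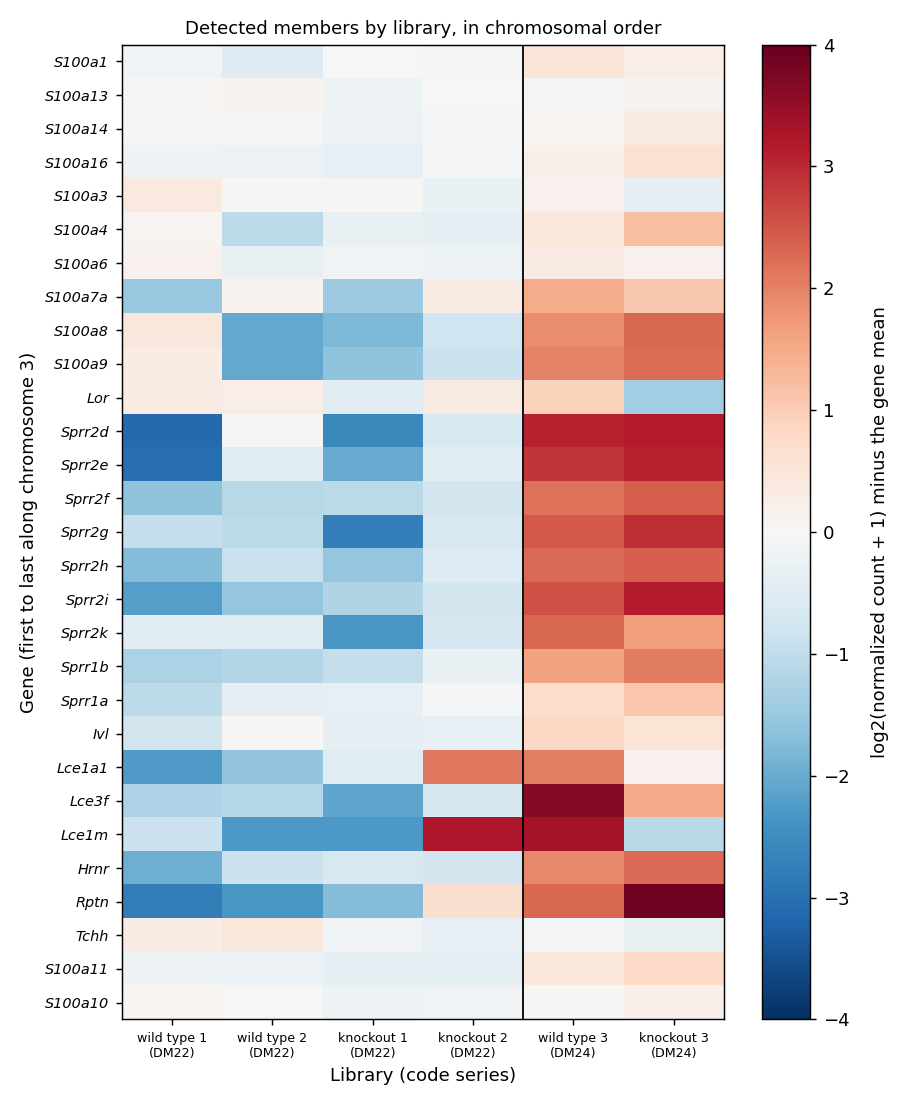
Log2 of the normalized count plus 1, minus the mean of the gene, for the 29 detected genes in chromosomal order and the 6 libraries; the vertical line divides the DM22 from the DM24 libraries. The block of Sprr2 genes and Sprr1b is red in both DM24 libraries, whereas Lce1a1 and Lce1m are red in wild-type library 3 and knockout library 2.

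S100a8 and S100a9, made by neutrophils and by activated keratinocytes, were 6.95 and 7.38 times higher in DM24 (limma adjusted p = 0.0623 and 0.0509, DESeq2 adjusted p = 0.0145 and 0.00463). The ratio of S100a9 to S100a8 stayed between 1.46 and 1.84 in the 6 libraries. Of the 9 other neutrophil markers in the table, Csf3r, Ngp and Ltf were at 0 in every library, and the summed level of the 9 was 80.3 to 168 in the DM22 libraries and 783 and 1061 in the DM24 libraries. Most of that sum was Mmp9 (60.6 to 148 in DM22, 747 and 988 in DM24), a protease that keratinocytes also make. Cxcr2 ran from 9.25 to 14.4 in DM22 and reached 24.7 and 59.4 in DM24. With S100a8 and S100a9 counted, 4 neutrophil markers were detected and 7 were not. In all 4 detected markers both DM24 libraries were above all DM22 libraries. Limma called 1 of these 4 higher in DM24, against 2.68% of all genes, and DESeq2 called 4, against 6.47%. Suprabasal keratinocyte markers moved along the series as well: their summed level was 45737 to 62574 in DM22, 65376 in wild-type replicate 3 and 132383 in its knockout counterpart. Of these 10 markers 7 were above 0 in DM24, 1 passed limma's test, and Krt1 reached 18834 and 54564 in DM24 against 6938 to 11292 in DM22. Basal keratinocyte markers went mostly the other way: 9 of 10 were below 0 in DM24, with a median of −0.27. Krt14 was the 1 above 0 (0.49), with code series that overlapped and its highest value in knockout library 3. Limma called 1 of the 10 lower, against 4.07% of all genes. DESeq2 called 3 of the 10 lower, against 1153 of all 13671 genes. Of 9 detected sebocyte markers 9 were above 0 and 5 passed, against 2.68% of all genes called higher by limma. Of 20 immediate early and tissue handling genes 19 were below 0 and 14 passed as lower, against 4.07% of all genes. The part of each of these in the members' differences was not tested.

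The Lce1 genes, late cornified envelope precursors, were high in a different pair of libraries from the Sprr2 genes. All 13 Lce1 genes had their 2 highest values in wild-type library 3 and knockout library 2, one library from each code series. Knockout library 2 was the highest for 12 of them and wild-type library 3 for Lce1m. Normalized counts of Lce1m were 1.68, 0 and 48.1 in wild type and 0, 45.3 and 1.26 in knockout, and Lce1a1 had 0.841, 1.92 and 35.1 against 5.35, 37.1 and 8.85. Summed over the 13 genes, the reads were 6, 13 and 138 in wild type and 14, 429 and 19 in knockout, with at most 55 reads for 1 gene in 1 library. These counts are low, and in the 4 other libraries no Lce1 gene exceeded 8.85 normalized counts. In all 13 genes knockout library 2 was above wild-type library 2, and knockout library 3 was below wild-type library 3, so the direction between genotypes turned with the pair. The genes are near relatives in sequence, and reads that match several of them could have been divided among them, so they are not independent measurements.

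The 4 Lce3 genes were highest in wild-type library 3 and second highest in knockout library 3, with 2, 11 and 88 reads in wild type and 2, 9 and 25 in knockout. Lce3f, the only detected one, had 0.841, 0.958 and 52.0 against 0, 1.65 and 11.4. The 9 Sprr2 genes with reads had the same top libraries, wild-type library 3 and knockout library 3, and 7 of the 9 were highest in knockout library 3 (65, 125 and 921 reads in wild type, 63, 163 and 1065 in knockout). Kprp, a proline-rich keratinocyte gene of the same region that was picked after its values were seen, had 14.3, 22 and 52.0 in wild type and 24.1, 72.5 and 6.32 in knockout. Its 2 highest libraries were those of the Lce1 genes.

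**Figure D5:**
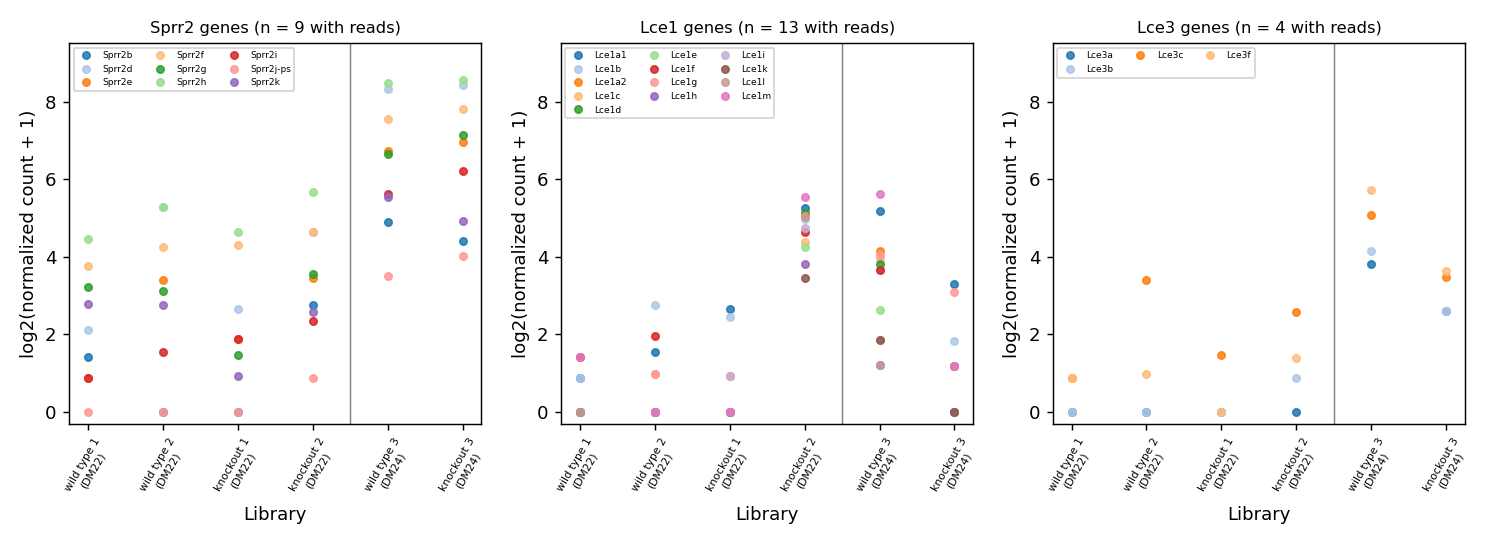
Log2 of the normalized count plus 1 in each library for the Sprr2 (9 with reads), Lce1 (13) and Lce3 (4) genes, 1 colour per gene; the vertical line divides DM22 from DM24. The Sprr2 and Lce3 genes are highest in the 2 DM24 libraries, and the Lce1 genes in knockout library 2 and wild-type library 3.

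Whether the knockout difference itself differed between the code series was tested with an interaction term, for which the DM24 series has 1 library per genotype. The DM24 knockout library was also the knockout library that kept the most Yap1 reads. In this term, code series and remaining Yap1 cannot be told apart. Limma called 0% of all genes and 0 of 29 members (748 genes and 4 members, S100a10, S100a11, Lor and Lce1a1, at an unadjusted p under 0.05), and DESeq2 called 0.263% of all genes and 0 members. The term could also be fitted without each of the 4 DM22 libraries in turn, and no member was called in these 4 runs by limma (0 to 476 genes) or by DESeq2 (9 to 273 genes). For Lor the difference was 1.95 lower (log2) in DM24 (unadjusted p = 0.0174, limma adjusted p = 0.867), and for Lce1a1 it was lower by 4.62 (unadjusted p = 0.0447).

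Genes of cornification that are not members were measured beside them. Of 50 listed genes of the cornified envelope and late differentiation, 49 were detected: 31 were above 0 in knockout and 18 below, with a median of 0.12. None was called by limma, edgeR or DESeq2 in the fits without a term, and 1 had an unadjusted limma p under 0.05. With the replicate block DESeq2 called Aqp3, a glycerol channel, and Cst6, an inhibitor of cysteine proteases of the cornified layer, higher in knockout. That was 2 of 49, against 0.410% of all genes called higher in that fit. Normalized counts of Cst6 were 95.8, 83.3 and 347 in wild type and 180, 166 and 857 in knockout (log2 difference with the block 1.08, DESeq2 adjusted p = 0.000356). With the code series Cst6 kept its call and Aqp3 did not (DESeq2 adjusted p = 1.53e-06 and 0.130), 1 of 49 against 0.724% of all genes called higher. Limma and edgeR called neither gene in either fit. Each knockout value was above its pair, and replicate 3 was the highest in both genotypes, as for Sprr1b. Along the code series, 19 of the 49 were called higher in DM24 by limma and 1 lower, with a median of 0.94. Of all genes tested, 2.68% were called higher and 4.07% lower, so the rise in DM24 was not limited to the members.

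Of 38 other genes lying in the same region of chromosome 3, 33 were detected, and limma called 0 higher and 1 lower in DM24, with a median of −0.06. Of 28 transcription factors known to act on the complex, 3 were called higher and 4 lower in DM24 (median −0.09), and the median between genotypes was 0.04. Among 16 detected genes for cross-linking and proteolysis of envelope precursors, 8 were above and 8 below 0 between genotypes, and 4 were called higher and 1 lower in DM24. Of 7 detected partners of S100 proteins, 1 was called higher in DM24. The background for these counts was 2.68% of all genes called higher by limma and 4.07% called lower. Anxa2, the partner of S100a10, had 21353, 23293 and 23732 in wild type and 17960, 19204 and 27243 in knockout, with knockout library 3 the highest, as for S100a10.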

How the data were processed

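Per the labels' protocols, a Qiagen column kit yielded total RNA and a TruSeq RNA kit the libraries. The submitters' processing notes name STAR 2.5, DESeq2 1.18.1 and build mm10 (GRCm38). The counter, annotation, strand setting and filters are not given in the sources used here. The authors deposited 1 table of normalized counts, a signal made of reads divided by one size factor per library. Tested on the values, 100% were whole multiples of 1 step per library (tolerance 0.001 reads), so whole reads were recovered. Coordinates are from GENCODE on GRCm38, and upstream sequences from RefSeq.

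Genes with a mean of at least 10 were tested with limma 3.58.1 in R 4.3.3 (mean-variance trend, robust prior) on log2(normalized count + 1). The 3 knockout libraries were set against the 3 wild-type libraries, two-sided, with Benjamini-Hochberg adjustment over all genes tested at 0.05. That scale understates changes of low genes. On the recovered reads, DESeq2 1.42.0 and edgeR 4.0.16 (TMM, quasi-likelihood) were alternatives. Further fits held the replicate number as a block, the code series as a term, or their interaction with genotype. The genotype difference was tested on simulated data for the 3 tools without a term, with the replicate block and with the code series. The code series difference, the interaction and the runs with fewer libraries were not. Single genes were given no exact permutation test, whose p cannot go below 0.1 with 3 against 3.

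The correlation across genes of the deviations from group means was 0.333, 0.327 and 0.694 for same-numbered libraries. All were above 0.1, and the replicate numbers were therefore treated as pairs. Wild-type library 2 had a correlation of 0.505 with knockout library 1, so the pairing within DM22 rests on the numbers in the labels alone.

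The members, lists and tests were chosen with earlier results of these data known. Values in every library were given for the 5 genes of each sub-family with the highest mean, for Ivl, Lor and the fused-type genes, and for members called by any fit; others were given where a pattern turned on them. The runs without 1 library and those limited to DM22 means were added after the data were seen. Per length, levels were divided by the union of annotated exons. Marker lists for macrophages and Langerhans cells (3 of 11 detected), T cells (1 of 8 in the table), fibroblasts (6 of 8), endothelium (3 of 7), melanocytes and Schwann cells (5 of 9), hair shaft (3 of 12), muscle and cartilage (2 of 9) and basal keratinocytes (10 of 10) had 0 genes called by limma between genotypes. Limma called 0 of all 13671 genes in that comparison, so these counts say nothing about the mix of cells.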

Additional observations from a re-analysis of the deposited data

How the results depend on the processing

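Between genotypes, limma called 0 of all genes and 0 members, and other pseudocounts, filters and scalings also gave 0. DESeq2 called 72 genes without a term, 170 with the replicate block, which fits the paired differences, 299 with the code series and 254 in the DM22 libraries, and limma called 2 in the DM22 libraries. With 1 library left out limma called 0 to 1 genes and DESeq2 24 to 238. Members called by DESeq2 numbered 0 without a term, 1 with the replicate block, 2 with the code series and 1 in the DM22 libraries; with 1 library left out they ran from 0 to 2 without a term and from 0 to 2 with the code series. The block changed no other call among members under DESeq2 and none under limma or edgeR. The members' median ran from −0.38 to 0.70 with 1 library left out. Detected members numbered 53 with no threshold. Along the code series, 13 members were called by limma, 7 with a mean of at least 50, where fewer members were tested, and 20 by DESeq2. With 1 library left out limma called 0 to 19 and DESeq2 8 to 19, each with fewer samples. The interaction called 0 members under each alternative run, including those without each DM22 library; without a DM24 library it could not be fitted, because 1 genotype then has no DM24 library.

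Small differences between genotypes changed sign with the fit. Sprr2d was 0.011 with a pseudocount of 0.5, 0.039 on CPM of recovered reads, 0.048 with edgeR and 0.045 with DESeq2. S100a8 was 0.14 with edgeR and 0.14 with DESeq2, and S100a9 was 0.022 with edgeR and 0.020 with DESeq2. Lce1m was 0.038 with edgeR, 0.013 with edgeR and the replicate block, 0.97 with edgeR and 3.07 with DESeq2 under the code series, and 2.06 in the DM22 libraries. In the DM22 libraries Ivl was 0.0091 and S100a14 −0.11. With 1 library left out the ranges were −0.38 to 1.71 for Hrnr, −0.48 to 0.31 for Ivl, −1.76 to 1.53 for Lce1m, −1.82 to 0.75 for Lce3f, −0.15 to 0.14 for S100a14, −1.39 to 0.70 for S100a8, −1.32 to 0.79 for S100a9, −0.34 to 1.49 for Sprr1b, −1.60 to 1.54 for Sprr2d, −0.72 to 1.57 for Sprr2f and −0.91 to 1.42 for Sprr2h. None of the values printed here passed its test. Of these genes, Sprr1b was called by DESeq2 with the code series when knockout library 1 was left out. The cause of the sign changes was not tested. With 3 reads equal to up to 3.90 normalized counts, differences among the Lce1, Lce3 and lowest Sprr2 genes within the 4 lower libraries were not detectable at this depth.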
